A study of Mus musculus with 3 samples.

Results

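Cycling and non-cycling epithelial cells were compared within 3 mouse pancreatic tumours of the strain KPf/fC, numbered 1 to 3. Separate animals are not named in the labels, so the p-values refer to these 3 tumours and cannot be extended to animals. They rest on a variance partly pooled over genes, and not on the spread between tumours alone. In the usual meaning of that name, a Cre recombinase active in the pancreas switches on an oncogene and removes floxed Trp53. The labels name neither the Cre driver nor an age. Cells had been sorted as CD45-, CD31- and PDGFRa- before 10x 3′ v2 single-cell RNA sequencing, which counts transcripts by unique molecular identifiers (UMIs), and both kinds of cell come from the same tumours; recombination was not checked in single cells.

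The members were chosen from the counts themselves. A cell entered the epithelial gate with at least 500 genes, at most 20% mitochondrial UMIs, at least 1 UMI each of Epcam and Krt18, and at most 2 UMIs of Dcn and Col3a1 together. It was called cycling when at least 4 of 8 genes (Top2a, Mki67, Cdk1, Birc5, Cenpf, Ube2c, Ccnb1 and Nusap1, the rule genes) had a UMI, and non-cycling when none had. Of 19576 barcodes 8440 passed the gate, and 325 of these were cycling and 6592 non-cycling. The other 1523 carried 1 to 3 rule genes and entered neither arm. Tumours 1, 2 and 3 gave 128, 139 and 58 cycling cells and 1884, 1456 and 3252 non-cycling cells.

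A dividing cell copies its DNA in S phase and separates the copies in mitosis, and transcripts of many mitotic genes peak late in the cycle. Growth before division also needs ribosomes, nucleotides, lipids and histones, while inhibitors of the cyclin-dependent kinases hold cells out of the cycle. The epithelium of pancreatic tumours of this kind is known to take on gastric, ductal and mucous features. Among the rule genes, Top2a untangles DNA, Mki67 coats mitotic chromosomes, Cdk1 with cyclin B1 (Ccnb1) drives entry into mitosis, Birc5 (survivin) and Cenpf act at centromeres and kinetochores, Ube2c feeds the anaphase-promoting complex, and Nusap1 binds spindle microtubules.

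Promoters of mitotic genes are known for the CCAAT box, bound by NF-Y, and for the cell cycle genes homology region (CHR), bound by DREAM and MuvB complexes. CHR was searched as TTTGAA, the CCAAT box as CCAAT, and E2F sites as TTTCCCGC or TTTGGCGC, on both strands, with overlapping matches counted separately, in the 250 bases before the start site (RefSeq, GRCm38.p6). All 8 rule genes were matched; 6 held a CCAAT box, 4 a CHR and 0 an E2F site, and 4 held both of the former. Of all 32851 promoters in that table, 33.9% held a CCAAT box, 16.0% a CHR, 1.3% an E2F site, and 5.55% both a CHR and a CCAAT box. These shares count single promoters. Counted by gene with any listed start, as the rule genes were, 40.4% of the 7866 matched genes tested below held a CCAAT box. A CHR was held by 12.3%, an E2F site by 3.08% and both a CHR and a CCAAT box by 4.60%. The promoters of Top2a (chr11:99024190-99024439, minus strand), Cdk1 (chr10:69352913-69353162, minus strand), Ube2c (chr2:164769679-164769928, plus strand) and Ccnb1 (chr13:100786487-100786736, minus strand) are shown because these genes define the cycling arm, 5′ to 3′ up to the start site, with CHR and CCAAT matches in capitals.
Top2a: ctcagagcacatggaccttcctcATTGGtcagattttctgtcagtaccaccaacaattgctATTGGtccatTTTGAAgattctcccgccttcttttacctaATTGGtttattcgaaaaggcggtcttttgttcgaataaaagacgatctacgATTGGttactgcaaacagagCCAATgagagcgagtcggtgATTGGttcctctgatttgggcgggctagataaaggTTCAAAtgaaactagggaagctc
Cdk1: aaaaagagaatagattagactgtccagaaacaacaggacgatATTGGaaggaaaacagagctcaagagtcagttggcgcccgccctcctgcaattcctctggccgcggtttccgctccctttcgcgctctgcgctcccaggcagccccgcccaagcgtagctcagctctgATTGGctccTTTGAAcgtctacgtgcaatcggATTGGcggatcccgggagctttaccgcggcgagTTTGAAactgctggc
Ube2c: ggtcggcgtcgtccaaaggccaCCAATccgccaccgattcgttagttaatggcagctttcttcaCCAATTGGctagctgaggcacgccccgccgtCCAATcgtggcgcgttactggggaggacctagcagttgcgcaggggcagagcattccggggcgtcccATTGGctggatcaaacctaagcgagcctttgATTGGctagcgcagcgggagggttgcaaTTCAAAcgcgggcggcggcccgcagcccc
Ccnb1: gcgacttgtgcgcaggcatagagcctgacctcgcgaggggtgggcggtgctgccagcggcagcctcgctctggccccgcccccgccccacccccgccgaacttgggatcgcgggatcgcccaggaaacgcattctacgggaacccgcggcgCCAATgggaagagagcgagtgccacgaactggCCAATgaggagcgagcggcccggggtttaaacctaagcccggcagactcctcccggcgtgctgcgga
Top2a and Ube2c held 6 CCAAT matches each, Cdk1 held 3 and Ccnb1 held 2. CHR matched at 2 places in Top2a, 2 in Cdk1 and 1 in Ube2c, while the window of Ccnb1 held no TTTGAA. Birc5 and Nusap1 held neither set of letters in this window. A match is a run of letters and no measurement of binding.

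Cycling cells made up 5.30% of the epithelial gate in tumour 1 (exact binomial 95% interval 4.44% to 6.27%), 6.61% in tumour 2 (5.58% to 7.75%) and 1.48% in tumour 3 (1.12% to 1.91%). Tumour 3 was lowest, and its interval, which covers counting error only, did not overlap the others. Depth differed between the arms: the median UMI count per cell was 17839, 16977 and 14340.5 in cycling cells of tumours 1, 2 and 3, against 8446, 7679 and 6728 in non-cycling cells. When each gated cell was first thinned to 3000 UMIs and the rule applied afterwards, the shares were 2.15%, 2.52% and 0.592%. Requiring no Dcn or Col3a1 UMI gave 3.70%, 4.0% and 0.991%. Tumour 3 was lowest by both settings.

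**Figure D1:**
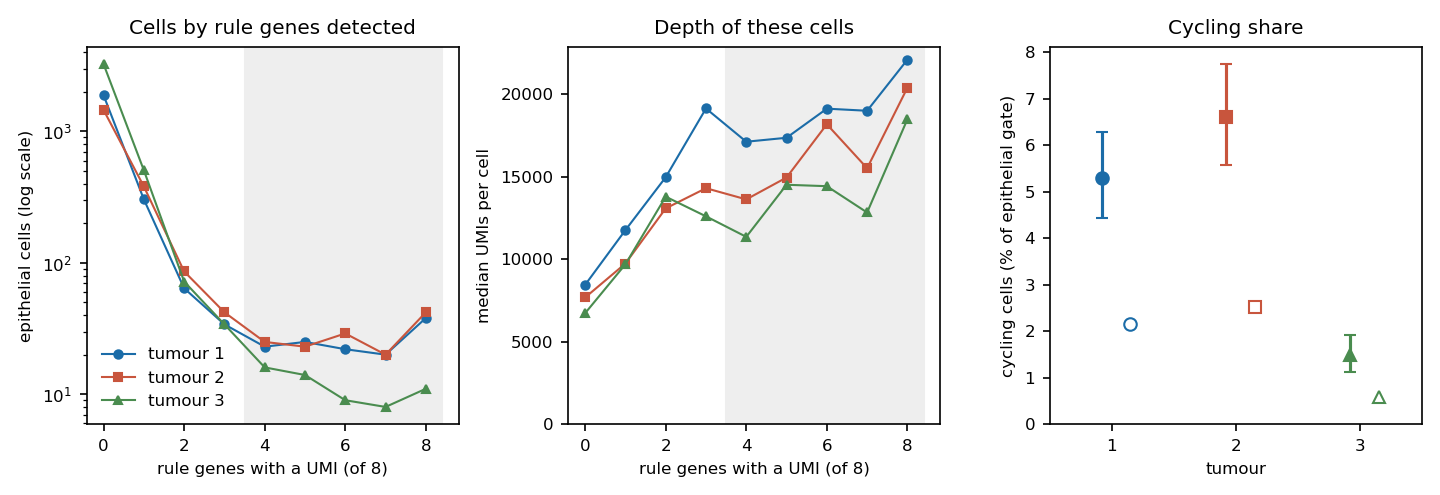
Left, epithelial cells (log scale) by how many of the 8 rule genes had a UMI, for each tumour; middle, median UMIs of these cells; right, cycling cells as a percentage of the gate, filled with exact binomial 95% intervals for the rule on all UMIs and open for the rule after thinning. Tumour 3 lies lowest in the right panel at 1.48% and 0.592%.

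The threshold of 4 genes cut through a continuous range. Cells with exactly 3 rule genes numbered 34, 42 and 34 in tumours 1, 2 and 3, with median depths of 19144, 14308.5 and 12602 UMIs. Cells with exactly 4 numbered 23, 25 and 16, with median depths of 17128, 13630 and 11358 UMIs, in each tumour below those just outside the arm. In the cycling sums Top2a stood at 250, 264 and 161 CPM (counts scaled to the same library total), Mki67 at 206, 101 and 86.2 CPM, and Cdk1 at 161, 228 and 299 CPM in tumours 1, 2 and 3. By construction all rule genes were at 0 in non-cycling cells, so these values only describe the rule.

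Levels were compared in sums of counts, 1 for each arm and tumour, after every cell had been thinned to 3000 UMIs; 202 non-cycling cells of tumour 3 with fewer UMIs were left out. The cycling sums held 384000, 417000 and 174000 UMIs and the non-cycling sums 5652000, 4368000 and 9150000. CPM is a share of the RNA captured, so a gene lower in CPM need not have had fewer molecules per cell, and in a sum fewer cells with a transcript and less transcript per cell cannot be told apart. Each difference below is a log2 fold change over 3 tumours, cycling relative to non-cycling, ± SE. It comes from edgeR's quasi-likelihood test with the tumour as a block. The test moderates the variance of a gene over all genes, so neither SE nor p is the spread between tumours alone. A gene is said to have risen or fallen when its Benjamini-Hochberg adjusted p over all 10245 genes tested was below 0.05, and levels are listed for tumours 1, 2 and 3 in that order.

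By that test 1493 of 10245 genes (14.6%) differed, 846 higher (8.26%) and 647 lower (6.32%) in cycling cells, and the median log2 fold change over all genes was -0.06. The cell cycle lists and replication-dependent histones held 206 of the 846. Outside them 640 of 10011 genes (6.39%) were higher and 646 (6.45%) lower. The call count was 745 without tumour 1, 894 without tumour 2 and 1161 without tumour 3. It was 647 by DESeq2, 270 without the tumour block, 725 with the rule applied after thinning and 650 with no Dcn or Col3a1 UMI allowed. Of 163 named genes called and tested under the alternatives, 53, 118, 61 and 59 lost their call in these, and 35 kept it in all alternatives in which they were tested.

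Because cycling cells were deeper, they were also compared with an equal number of non-cycling cells of like depth, with median UMIs of 17829, 16523 and 14342. This smaller comparison, the depth-matched one below, tested 4722 genes and called 587, 304 higher (6.44%) and 283 lower (5.99%). Of the 1493 genes 1057 could be tested in it, 515 were called again and 17 changed sign.

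The cell cycle lists describe the arms and are not independent of the rule. Of 133 tested G2 and M phase genes 123 were higher and 0 lower (median 3.83). Hmmr, a spindle protein, had 96.4, 59.95 and 121 CPM against 0.531, 0.687 and 0.109 CPM. The kinase Aurkb had 33.9, 59.95 and 34.5 CPM against 0, 0.229 and 0 CPM, and Depdc1a and the phosphatase Cdc25c were likewise at 0 in 2 of the 3 non-cycling sums. Of 92 S phase genes 78 were higher and 0 lower (median 1.93), with cyclin A2 (Ccna2) at 161, 88.7 and 109 CPM against 0, 0.916 and 0.546 CPM. The S phase count was 50 without tumour 1 and 51 without tumour 2.

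Genes for RNA processing made up 1 of the lists with many higher members. Of 32 splicing and RNA-binding proteins tested, 27 were higher and 0 lower (median 0.74), and 25 had all 3 cycling sums above all 3 non-cycling sums, as 11.5% of all genes tested did. The RNA helicase Ddx39 had 229, 182 and 138 CPM against 60.7, 58.6 and 43.6 CPM (1.72 ± 0.18; edgeR, adjusted p = 4.47e-19). Lsm3, of the protein ring on U6 small nuclear RNA, had 214, 230.2 and 264 CPM against 65.1, 90.4 and 102 CPM (1.45 ± 0.16). The arms did not overlap for either gene. The export adaptor Alyref (1.32 ± 0.20) and Lsm5 of the same ring (1.29 ± 0.16) rose as well, though Alyref lost its call with no Dcn or Col3a1 UMI allowed (0.85). Depth-matched, 20 of 32 were higher, these 4 among them, and the list count was 21 by DESeq2, 8 without the tumour block and 15 with the rule applied after thinning.

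Genes of ribosome assembly and other MYC targets were higher in 25 of 37 cases and lower in 0 (median 0.84). The pseudouridine synthase dyskerin (Dkc1) had 70.3, 91.1 and 40.2 CPM against 23.9, 28.6 and 14.97 CPM (1.56 ± 0.27; edgeR, adjusted p = 2.54e-07), each cycling sum above every non-cycling sum. The spermidine synthase Srm (1.51 ± 0.30), the assembly factor Wdr12 (1.43 ± 0.33) and the nucleolar protein Nolc1 (1.41 ± 0.25) rose too, with Srm in tumour 3 at only 11.5 CPM in cycling cells. Dkc1 (0.91) and Srm (1.13) lost their calls with the rule applied after thinning. With no Dcn or Col3a1 UMI allowed Srm (1.19) and Nolc1 (1.03) lost theirs. Of 39 cytosolic ribosomal proteins 3 were higher and 1 lower (median 0.06), with 1 higher without tumour 1 and 1 higher and 2 lower without tumour 2. Rps2 stood at 0.41 ± 0.08 and Rps27 at -0.39 ± 0.09, and neither was called depth-matched (0.22 and -0.17). Myc itself was not called, at 5.21, 26.4 and 17.2 CPM against 10.8, 19.7 and 11.04 CPM (0.12 ± 0.45), and its arms overlapped. The assembly count was 16 without tumour 2, where Wdr12 lost its call (1.27), 13 of 27 depth-matched, and 18 by DESeq2, 5 without the tumour block and 9 with the rule applied after thinning.

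Chromatin proteins were higher in 15 of 25 cases and lower in 0 (median 0.61). Anp32b, a histone-binding acidic protein, had 641, 599.5 and 466 CPM against 242, 265 and 187 CPM (1.27 ± 0.13; edgeR, adjusted p = 3.44e-20). The nucleosome binder Hmgn5 (1.53 ± 0.23) and Ezh2, the methyltransferase of Polycomb repressive complex 2 (1.26 ± 0.25), rose as well. Ezh2 had 109, 103 and 17.2 CPM against 42.8, 43.04 and 8.96 CPM, so tumour 3 was low in both arms. Its call was lost with no Dcn or Col3a1 UMI allowed (0.86). The histone methyltransferase Suv39h1 (1.35 ± 0.40) lost its call without tumour 1 (1.28), without tumour 3 (1.25) and depth-matched (0.20). The list count was 10 without tumour 2, 9 of 23 depth-matched, and 9 by DESeq2, 3 without the tumour block and 8 with the rule applied after thinning.

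Nucleotide and one-carbon genes were higher in 13 of 24 cases and lower in 0 (median 0.85). Phgdh, the first enzyme of serine synthesis, had 284, 239.8 and 155 CPM against 69.5, 63.4 and 48.6 CPM (1.88 ± 0.17; edgeR, adjusted p = 1.51e-25). Psat1, the next enzyme of that path, had 41.7, 47.96 and 40.2 CPM against 6.900, 15.3 and 6.45 CPM (2.13 ± 0.35). Arms were apart for both, and both kept their calls when any 1 tumour was left out and depth-matched, Phgdh at 1.04 and Psat1 at 1.58. With no Dcn or Col3a1 UMI allowed Psat1 lost its call (1.75). The folate enzymes Mthfd2 (1.27 ± 0.36) and Mthfd1 (1.27 ± 0.40) lost theirs without tumour 1 (1.42 and 1.42), without tumour 2 (0.91 and 0.91) and depth-matched (0.42 and 0.35). The list count was 5 without tumour 1, 6 without tumour 2, 7 of 14 depth-matched, and 6 by DESeq2, 3 without the tumour block and 4 with the rule applied after thinning.

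Sterol and fatty acid synthesis genes were higher in 13 of 27 cases and lower in 0 (median 0.79). The cholesterol carrier Stard4 had 72.9, 40.8 and 74.7 CPM against 24.9, 13.7 and 26.6 CPM (1.50 ± 0.28; edgeR, adjusted p = 3.34e-06). The fatty acid elongase Elovl6 had 33.9, 23.98 and 34.5 CPM against 8.14, 8.01 and 6.23 CPM (1.95 ± 0.41). Arms were apart for both, but not for the squalene epoxidase Sqle (1.20 ± 0.27), which lost its call without tumour 2 (0.88) and depth-matched (0.94). Stard4 (1.03) and Elovl6 (1.69) lost theirs with no Dcn or Col3a1 UMI allowed, and Elovl6 (1.45) with the rule applied after thinning. The count was 7 without tumour 1, 7 without tumour 2, 3 of 18 depth-matched, and 6 by DESeq2, 2 without the tumour block and 4 with the rule applied after thinning.

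Genes of the respiratory chain were counted by the genome that encodes them, and the groups were not tested against each other. Of 35 nuclear-encoded genes of the respiratory chain 14 were higher and 0 lower (median 0.36). Cytochrome c (Cycs) had 391, 439 and 322 CPM against 164, 220.2 and 115 CPM (1.18 ± 0.14; edgeR, adjusted p = 5.81e-15), and Atp5o (0.62 ± 0.12) and Ndufa4 (0.51 ± 0.11) rose by less. Of 13 genes encoded in mitochondrial DNA 0 were higher and 4 lower (median -0.22), among them mt-Co1 with 7458, 6283 and 11575 CPM against 12402, 9556 and 17705 CPM (-0.69 ± 0.07). Depth-matched, 11 of 35 nuclear genes were higher (Cycs at 0.75), while the mitochondrially encoded median was 0.09 and mt-Co1 (-0.37) was the 1 of 12 that was lower; mt-Co3 went from -0.42 to -0.03. The nuclear count was 3 without tumour 1, 6 without tumour 2, and 3 by DESeq2, 0 without the tumour block and 2 with the rule applied after thinning, and the mitochondrial count was 2 without tumour 1. Median mitochondrial shares were 3.43%, 3.42% and 4.60% in cycling and 4.33%, 4.20% and 5.49% in non-cycling cells; their part in these values was not tested.

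Genes of protein quality control held less firmly. Of 26 proteasome subunits 11 were higher and 0 lower (median 0.40), with Psmb7 at 0.66 ± 0.14. Depth-matched, 0 of 26 were called by edgeR (Psmb7 at 0.20) and 1 had an unadjusted p under 0.05, and the count was 2, 3 and 7 without tumours 1, 2 and 3. Of 23 chaperones 10 were higher and 4 lower (median 0.33). Cct7, of the cytosolic chaperonin, had 406, 307 and 333 CPM against 209, 202 and 176 CPM (0.79 ± 0.14) and stayed called depth-matched (0.49). The inducible Hsp70 gene Hspa1b (-0.90 ± 0.28) lost its call without tumour 2 (-0.60), without tumour 3 (-0.69) and depth-matched (-0.62). Without tumours 1, 2 and 3 the higher chaperones numbered 3, 4 and 8 and the lower ones 3, 1 and 1; depth-matched they numbered 2 and 3 of 22.

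**Figure D2:**
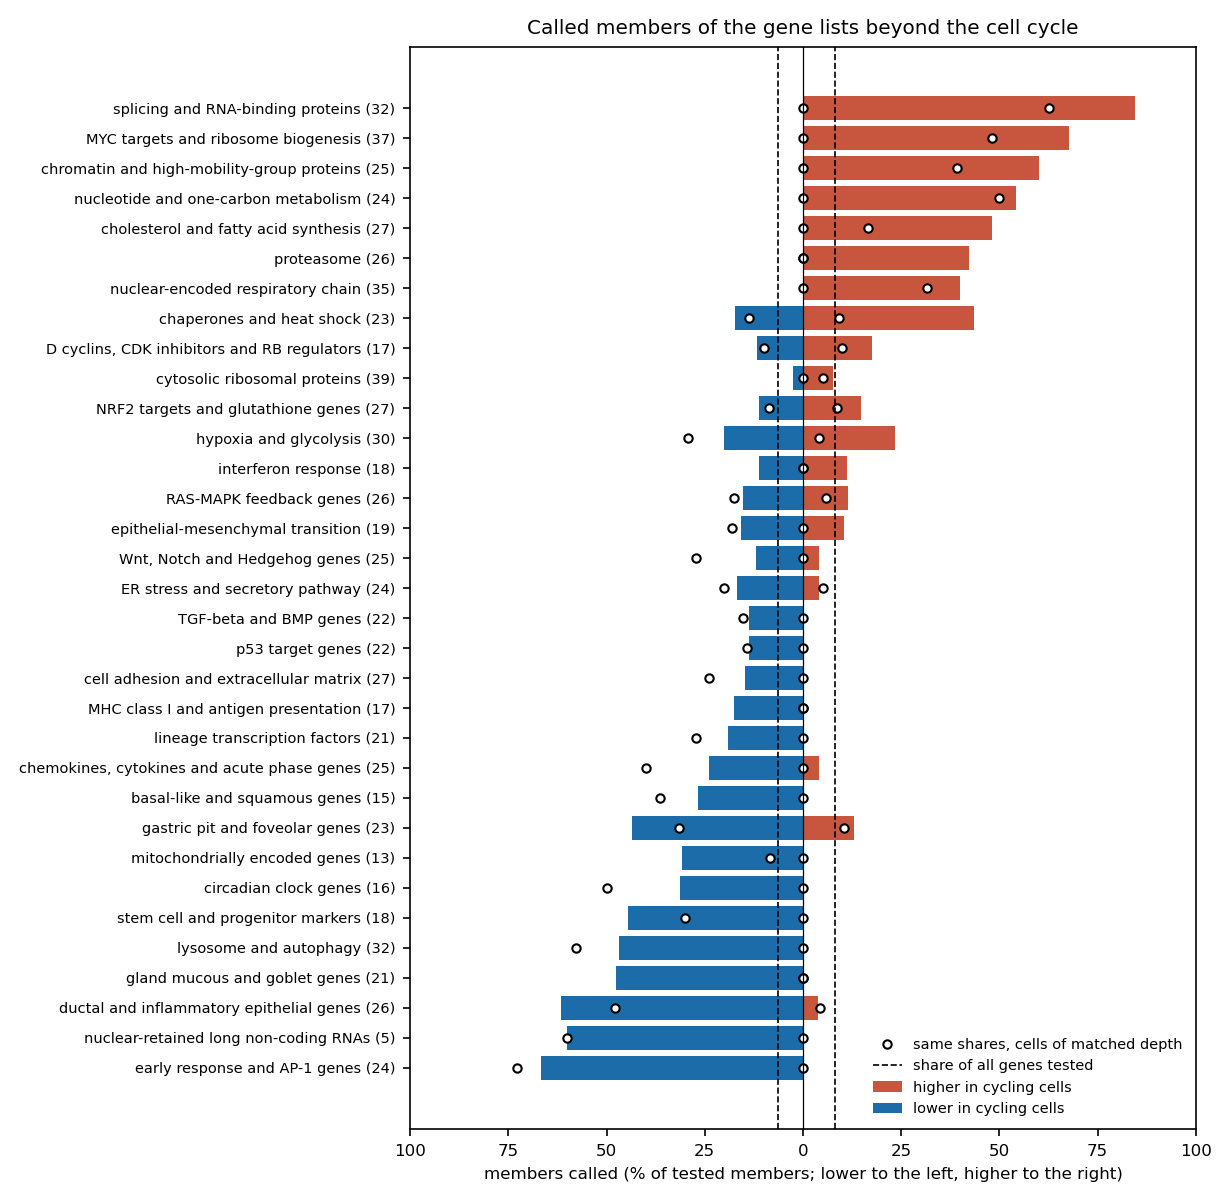
Share of tested members of each list beyond the cell cycle that were higher (right, red) or lower (left, blue) in cycling cells, with the number tested in brackets; open circles give the depth-matched shares, and dashed lines the 8.26% and 6.32% of all genes tested. Splicing genes reach farthest to the right with 27 of 32, and early response genes farthest to the left with 16 of 24.

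Genes with the largest rises outside the lists included several with known mitotic or chromatin roles, so outside the lists is not outside the cell cycle. Lockd, a long non-coding RNA made beside Cdkn1b, had 80.7, 59.95 and 34.5 CPM against 2.300, 2.29 and 0.765 CPM (4.99 ± 0.41; edgeR, adjusted p = 1.21e-31). The linker histone H1fx had 33.9, 35.97 and 51.7 CPM against 1.77, 1.14 and 6.34 CPM (3.83 ± 0.44), and the kinetochore protein Pmf1 had 133, 74.3 and 167 CPM against 20.2, 19.00 and 23.4 CPM (2.49 ± 0.24). The arms were apart for all 3 genes. The 12 others were the DNA replication factor Fam111a (3.56), C330027C09Rik (3.56), Trim59 (3.06), the spindle orientation protein Gpsm2 (2.55), Eno3 (2.51), Hirip3 (2.49), Alg8 (2.31), the Ran exchange factor Rcc1 (2.31), the nucleoporin Nup85 (2.28), Gatm (2.26), 3110039M20Rik (2.24) and Dnph1 (2.22).

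Some of these calls were lost when 1 tumour was left out, with the fold change still positive. Gatm, which makes the precursor of creatine, had 83.3, 16.8 and 17.2 CPM against 13.1, 6.18 and 4.04 CPM and lost its call without tumour 1 (1.59). The muscle enolase Eno3 had 10.4, 47.96 and 5.75 CPM against 2.12, 5.95 and 3.28 CPM and lost its call without tumour 2 (1.69), as did Alg8 of N-glycan assembly (2.00) and 3110039M20Rik (1.90). Gpsm2 (2.07) and Rcc1 (1.58) lost theirs with no Dcn or Col3a1 UMI allowed. Depth-matched, H1fx was 6.62, C330027C09Rik 5.24, Lockd 3.79, Trim59 2.73, Pmf1 2.40 and Nup85 2.36, all called, and the other 9 of the 15, Fam111a, Gpsm2 and Rcc1 among them, were not testable. The matched non-cycling sums held only 128, 139 and 58 cells. H1fx and C330027C09Rik had larger values there than against all non-cycling cells (3.83 and 3.56), and the cause was not tested.

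Of these 15 genes 11 were in the promoter table; 7 held a CCAAT box, 5 a CHR and 3 both, and of the 7866 matched genes tested 40.4%, 12.3% and 4.60% did. The promoters of Trim59 (chr3:69044743-69044992, minus strand) and Gpsm2 (chr3:108722300-108722549, minus strand) are shown because these genes rose beyond the lists and hold both sets of letters, again up to the start site with CHR and CCAAT matches in capitals.
Trim59: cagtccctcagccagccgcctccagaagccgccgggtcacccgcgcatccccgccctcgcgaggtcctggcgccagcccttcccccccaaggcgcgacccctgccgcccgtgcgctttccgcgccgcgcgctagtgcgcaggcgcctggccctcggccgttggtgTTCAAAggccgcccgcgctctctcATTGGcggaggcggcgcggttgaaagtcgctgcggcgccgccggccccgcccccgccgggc
Gpsm2: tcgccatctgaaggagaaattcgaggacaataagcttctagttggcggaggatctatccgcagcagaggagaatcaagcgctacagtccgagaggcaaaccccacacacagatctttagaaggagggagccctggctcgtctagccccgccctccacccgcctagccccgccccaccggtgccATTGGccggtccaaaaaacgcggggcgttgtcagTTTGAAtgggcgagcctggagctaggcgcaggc
Lockd held both as well. Among matched G2 and M phase genes other than the rule genes 76 of 118 held a CCAAT box and 40 a CHR. Of 93 matched S phase genes 54 held a CCAAT box, 16 a CHR and 16 an E2F site. Of the 15 genes with the largest falls 12 were matched, 4 with a CCAAT box and 3 with a CHR.

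Of 26 ductal and inflammatory genes of the tumour epithelium tested, 16 were lower and 1 higher (median -0.97), and the summed level of the list was 26969, 22012 and 23276 CPM in cycling against 48227, 40795 and 40208 CPM in non-cycling cells. Lcn2, an iron-scavenging lipocalin, had 227, 83.9 and 333 CPM against 1313, 576 and 3512 CPM (-2.94 ± 0.13; edgeR, adjusted p = 8.66e-109). The antimicrobial lectin Reg3b had 659, 499 and 299 CPM against 2564, 1323 and 1191 CPM (-1.80 ± 0.11). Arms were apart for both. The matrix protease Mmp7 had 39.1, 79.1 and 305 CPM against 124, 193 and 1206 CPM (-1.73 ± 0.17), with tumour 3 high in both arms, and Pigr, which carries antibodies across epithelium, fell by 1.98 ± 0.24.

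Several of these values were smaller when depth was matched. Lcn2 was then -1.69, Reg3b -0.84, Mmp7 -0.95 and Pigr -0.56; Pigr was no longer called, and 11 of 23 members were lower and 1 higher. Chosen after their values were seen, Reg3g went from -1.04 to 0.32 and Dmbt1 from -1.38 to -0.14, neither called depth-matched. Also chosen so, osteopontin (Spp1, -1.12 and -1.08), Clu (-0.99 and -0.87), Cldn4 (-1.37 and -1.21) and the ductal transcription factor Sox9 (-1.03 and -0.89) were called in both, and Wfdc2 was the member that rose (0.64 and 0.38). The list count of lower members was 13 by DESeq2, 5 without the tumour block and 15 with the rule applied after thinning.

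Of 23 gastric pit genes 10 were lower and 3 higher (median -0.59). The gastrokine Gkn1 had 508, 197 and 172 CPM against 766, 499 and 331 CPM (-0.96 ± 0.14; edgeR, adjusted p = 1.90e-10), lower in 3 of 3 tumours with overlapping arms. Gkn2 (-0.94 ± 0.16) and the transcription factor Onecut2 (-0.95 ± 0.13) fell too, while the surfactant protein Sftpd went from -1.08 to 0.04 depth-matched, where 6 of 19 were lower and 2 higher (median -0.01). Without tumour 1 the number of higher pit genes was 1, and DESeq2 called 8 lower. Of 21 gland mucous and goblet genes 10 were lower and 0 higher (median -1.10), and the trefoil factor Tff3 had 10.4, 14.4 and 0 CPM against 180.1, 32.3 and 78.3 CPM (-3.23 ± 0.36). Depth-matched, 0 of 7 testable mucous genes were called by edgeR, 1 had an unadjusted p under 0.05, and their median was 0.51. The mucous count was 6 without tumour 1 and 5 by DESeq2, 0 without the tumour block and 4 with the rule applied after thinning.

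Early response genes, which growth factors or stress induce within minutes and which include the AP-1 factors, were lower in 16 of 24 cases and higher in 0 (median -0.78). Btg2, an antiproliferative protein, had 247, 211 and 195 CPM against 596, 481 and 586 CPM (-1.35 ± 0.14; edgeR, adjusted p = 1.11e-19). The MAP kinase phosphatase Dusp1 had 148, 113 and 97.7 CPM against 319, 228 and 261 CPM (-1.17 ± 0.17). Both were lower in each tumour with the arms apart. The signalling inhibitor Socs3 (-1.16 ± 0.26) and the small MAF factor Maff (-1.23 ± 0.31) fell, and Maff lost its call without tumour 2 (-0.77). Chosen after their values were seen, Fos (-0.79 ± 0.12), Jun (-0.87 ± 0.13) and Ier3 (-0.98 ± 0.14) fell as well. Depth-matched, 16 of 22 were lower (median -0.77), and the count was 14 by DESeq2, 3 without the tumour block and 15 with the rule applied after thinning.

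Lysosome and autophagy genes were lower in 15 of 32 cases and higher in 0 (median -0.55). The protease cathepsin D (Ctsd) had 190.1, 197 and 253 CPM against 326, 443 and 420.3 CPM (-0.94 ± 0.15; edgeR, adjusted p = 4.34e-09), with the arms apart. Map1lc3a, an LC3 protein of the autophagosome, had 26.04, 101 and 97.7 CPM against 121, 129 and 185 CPM (-1.02 ± 0.20) and lost its call without tumour 1 (-0.65). Wipi1, which acts early in autophagosome formation (-1.28 ± 0.32), lost its call without tumour 1 (-1.21), and the sialidase Neu1 (-1.18 ± 0.33) lost it without tumour 2 (-0.85) and depth-matched (-1.14). Depth-matched, 15 of 26 were lower; the count was 10 without tumour 1, and 10 by DESeq2, 0 without the tumour block and 11 with the rule applied after thinning.

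Nuclear-retained long non-coding RNAs were lower in 3 of 5 cases and higher in 0. Malat1 had 10068, 10837 and 7442 CPM against 29769, 31970.0 and 24583 CPM (-1.65 ± 0.07; edgeR, adjusted p = 9.09e-115), and Neat1, the scaffold of paraspeckles, had 914, 530.0 and 1213 CPM against 2130.2, 1411 and 3088 CPM (-1.36 ± 0.10). Arms were apart for both. Meg3 fell by 0.73 ± 0.18. Depth-matched, Malat1 was -1.31, Neat1 -1.45 and Meg3 -0.99, all called.

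**Figure D3:**
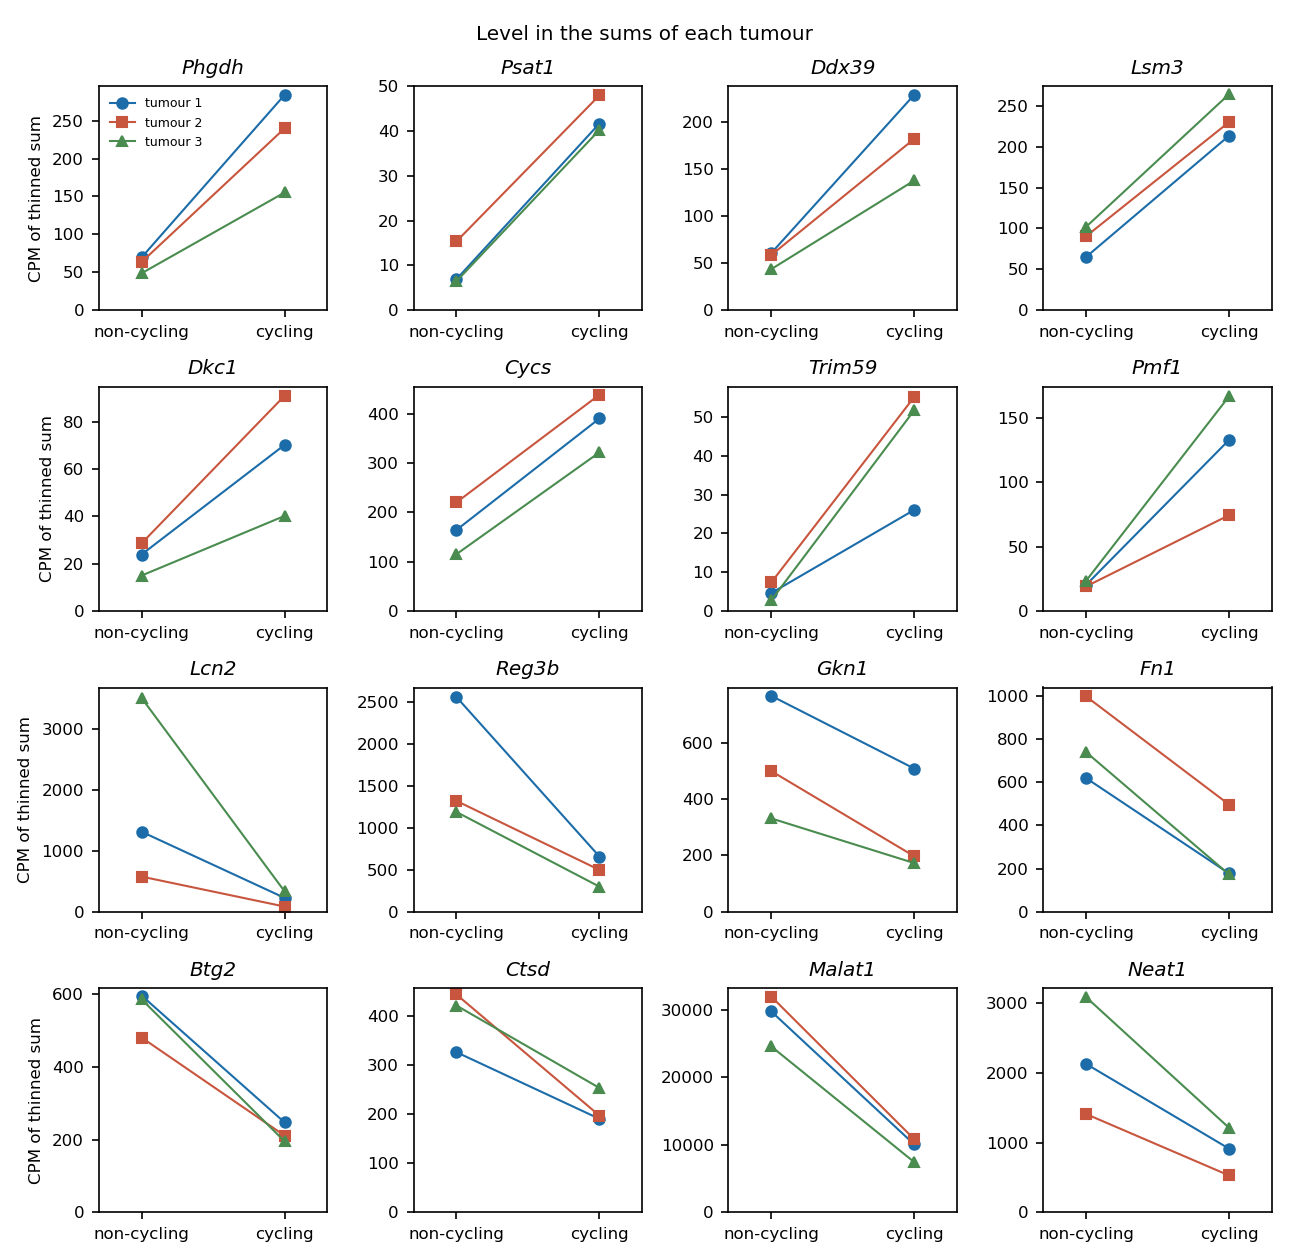
Level in CPM (vertical axes from 0) of 16 genes in the non-cycling and cycling sums, with a line joining the sums of 1 tumour. Lines rise in all 3 tumours for the upper 8 genes and fall in all 3 for the lower 8; Malat1 had 10068, 10837 and 7442 CPM against 29769, 31970.0 and 24583 CPM.

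ER stress and hypoxia lists were mixed. Of 24 ER stress and secretory genes 4 were lower and 1 higher. The ER co-chaperone Dnajb9 had 15.6, 19.2 and 11.5 CPM against 56.6, 58.1 and 54.6 CPM (-1.83 ± 0.34), with the arms apart, and the transcription factors Xbp1 (-1.27 ± 0.20) and Atf3 (-0.95 ± 0.17) fell with Herpud1 (-1.01 ± 0.21), which lost its call without tumour 3 (-0.64). Of 30 hypoxia and glycolysis genes 7 were higher and 6 lower (median -0.28). The angiogenic factor Vegfa had 39.1, 23.98 and 22.99 CPM against 107, 93.9 and 55.2 CPM (-1.65 ± 0.27; edgeR, adjusted p = 6.42e-08), with no overlap. The mitophagy receptor Bnip3 (-1.08 ± 0.29), Adm (-2.21 ± 0.64) and Aldoc (-2.18 ± 0.57) lost their calls without tumour 1 (-0.94, -1.04 and -1.17).

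The 7 higher members of that list, chosen after their values were seen, were 6 glycolytic enzymes and the cytokine Mif. Pgk1 (1.03 ± 0.31), Tpi1 (0.45 ± 0.13) and Gapdh (0.30 ± 0.10) rose. Depth-matched they stood at 0.93, 0.18 and -0.04, none called, and none of them was called without tumour 1 (0.80, 0.49 and 0.27) or without tumour 3 (0.75, 0.22 and 0.23). Gapdh was not called without tumour 2 (0.33) either. Pgam1 (0.85 ± 0.14), Ldha (0.76 ± 0.12) and Eno1 (0.57 ± 0.14) rose too, and depth-matched they stood at 0.22, 0.35 and 0.12, not called. Eno1 was not called without tumour 3 (0.35) either. Mif (0.63 ± 0.12, and 0.41 depth-matched) was the 1 higher member of 24 there, with 7 lower. The higher count was 4 without tumour 1, 3 without tumour 3 and 3 by DESeq2, 0 without the tumour block and 1 with the rule applied after thinning, and the lower count 3 without tumour 1.

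Regulators of cell cycle entry were mixed too. Of 17 D cyclins, CDK inhibitors and RB regulators 3 were higher and 2 lower. The inhibitor p21 (Cdkn1a) had 52.1, 52.8 and 74.7 CPM against 108, 102 and 129 CPM (-0.98 ± 0.22; edgeR, adjusted p = 0.000182), with the arms apart, but was not called depth-matched (-0.68). Cdkn2b had 67.7, 115 and 149 CPM against 109, 205 and 162 CPM (-0.62 ± 0.18) and lost its call without tumour 1 (-0.61) and without tumour 2 (-0.50). Its neighbour Cdkn2a was not called, at 401, 889.7 and 782 CPM against 351, 803 and 579 CPM (0.22 ± 0.12). Cyclin D1 (Ccnd1) had 232, 520.4 and 276 CPM against 264, 269 and 126 CPM (0.57 ± 0.14), lower in tumour 1 and higher in tumours 2 and 3, and was not called without tumour 2 (0.26), without tumour 3 (0.41) or depth-matched (0.07). Cdk4 (0.64 ± 0.15) lost its call without tumour 2 (0.54) and depth-matched (0.46), and E2f4 rose by 1.20 ± 0.28.

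Trp53, which is floxed in this strain, did not pass the test, at 62.5, 50.4 and 40.2 CPM against 42.1, 22.4 and 75.2 CPM (0.38 ± 0.26), lower in tumour 3 only. A 3′ tag of Trp53 can lie outside the deleted part, so its presence checks nothing. Of 22 p53 target genes 3 were lower and 0 higher. Gadd45a had 23.4, 76.7 and 103 CPM against 129, 185 and 148 CPM (-1.38 ± 0.21), with the arms apart, Trp53inp1 stood at -1.73 ± 0.42, and Gadd45b (-1.06 ± 0.36) lost its call when any 1 tumour was left out (-1.41, -1.03 and -0.93).

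Stem cell and progenitor markers were lower in 8 of 18 cases and higher in 0 (median -0.47). Prom1, which encodes CD133, had 219, 132 and 195 CPM against 383, 309 and 317 CPM (-0.95 ± 0.15; edgeR, adjusted p = 1.53e-08), with the arms apart, but was not called depth-matched (-0.35). The RNA-binding protein Msi2 had 46.9, 76.7 and 34.5 CPM against 77.7, 88.4 and 99.9 CPM (-0.66 ± 0.23) and lost its call without tumour 1 (-0.67), without tumour 3 (-0.46) and depth-matched (-0.62). Cd44, the hyaluronan receptor (-0.49 ± 0.14), lost its call without tumour 2 (-0.43) and kept it depth-matched (-0.60). The Wnt-responsive receptor Lgr5 had no UMI in any cycling sum and 8.85, 8.47 and 7.104 CPM in the non-cycling sums, at least 2.65-fold lower with 3 counts over the cycling group as the floor, and lost its call without tumour 1 and without tumour 2. The list count was 4 without tumour 1, 4 without tumour 2, 3 of 10 depth-matched, and 2 by DESeq2, 0 without the tumour block and 5 with the rule applied after thinning.

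Matrix, lineage and mesenchymal genes gave single changes. Fibronectin (Fn1) had 177, 496 and 172 CPM against 619, 998 and 739.7 CPM (-1.56 ± 0.13; edgeR, adjusted p = 4.29e-29), with the arms apart. The laminin subunit Lamb3 (-1.01 ± 0.27) fell, but was not called without tumour 1 (-0.84), in a basal-like list with 4 of 15 lower and 1 without tumour 1. The transcription factor Sox4 had 172, 213 and 138 CPM against 451, 409 and 287 CPM (-1.16 ± 0.15), and Klf4 fell by 0.73 ± 0.17, in a lineage list with 4 of 21 lower. Of 19 epithelial-mesenchymal genes 2 were higher and 3 lower, with 1 lower without tumour 1 and 1 higher without tumour 2. Vimentin (Vim) had 703, 1158 and 718 CPM against 295, 638 and 262 CPM (1.14 ± 0.12) but was 0.11 and not called depth-matched. Prrx1 (2.13 ± 0.45) had 5.21, 69.5 and 5.75 CPM against 1.59, 14.7 and 1.42 CPM and was not called without tumour 2 (1.71). Of 27 adhesion and matrix genes 4 were lower, and 1 without tumour 2.

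Most members of the signalling and immune lists below were not called. Over all genes tested 8.26% were higher and 6.32% lower, and several of these lists held larger shares of lower genes. Without the tumour block edgeR called no member in 23 of the 34 lists other than the S and the G2 and M phase lists, with 100 of their 509 tested genes at an unadjusted p under 0.05. The cytosolic ribosomal, mitochondrially encoded, nuclear respiratory, gastric pit, mucous, epithelial-mesenchymal, RAS-MAPK, p53, Wnt, class I antigen, cytokine, NRF2 and clock lists were among the 23. Wnt4 had 18.2, 16.8 and 63.2 CPM against 58.7, 38.5 and 325 CPM (-1.94 ± 0.27; edgeR, adjusted p = 6.16e-11), lower in 3 of 3 tumours. It was 1 of 3 lower genes among 25 of the Wnt, Notch and Hedgehog pathways, with Hes1 (-0.65 ± 0.18; -0.45 and not called without tumour 2) and beta-catenin (Ctnnb1, -0.52 ± 0.14). Of 22 TGF-beta and BMP genes 3 were lower by edgeR, and 0 without tumour 2, where 6 had an unadjusted p under 0.05. Of 26 RAS-MAPK feedback genes 3 were higher and 4 lower, with 1, 2 and 1 higher and 2, 0 and 3 lower without tumours 1, 2 and 3 (edgeR), 1 and 3 of 17 depth-matched, and 1 and 0 by DESeq2. Phlda2 had 83.3, 31.2 and 126 CPM against 14.9, 27.5 and 25.8 CPM (1.70 ± 0.27). Class I antigen genes were lower in 3 of 17 cases, H2-T23 (-1.14 ± 0.32), H2-K1 (-0.79 ± 0.18) and H2-D1 (-0.76 ± 0.16), and none of these was called depth-matched (-0.44, -0.19 and -0.40; 1 of 8 in the list had an unadjusted p under 0.05). Without tumour 1, H2-T23 (-1.22) and H2-K1 (-0.72) lost their calls. Of 18 interferon response genes 2 were higher and 2 lower, with 0 called by edgeR without tumour 1, where 2 had an unadjusted p under 0.05, and of 25 cytokine and acute phase genes 1 was higher and 6 lower, among them complement C3 (-1.73 ± 0.29).

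Among 27 NRF2 and glutathione genes 4 were higher and 3 lower, with 1, 3 and 2 higher and 2, 2 and 2 lower without tumours 1, 2 and 3, and 1 and 2 by DESeq2. Thioredoxin (Txn1) had 1484, 1539.6 and 1448 CPM against 831, 1044 and 823 CPM (0.70 ± 0.10; edgeR, adjusted p = 7.28e-10), with the arms apart. The ferritin heavy chain Fth1 (-0.61 ± 0.09) and the glutathione transferase Mgst1 (-1.49 ± 0.15) fell and stayed called depth-matched (-0.51 and -0.98). Of 16 clock genes 5 were lower and 0 higher, with 2 without tumour 1 and 2 without tumour 3, 1 of 2 depth-matched and 1 with the rule applied after thinning. DESeq2 called 0 of them lower, with 5 of 16 at an unadjusted p under 0.05. The clock output gene Dbp had 0, 0 and 28.7 CPM against 17.9, 3.66 and 61.1 CPM and lost its call without tumour 1 (-1.38). Epcam, which the gate used, had 989.6, 1089 and 1534 CPM against 1571, 1574 and 2353 CPM, and the ductal keratin Krt19 was not called (-0.19 ± 0.10).

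**Figure D4:**
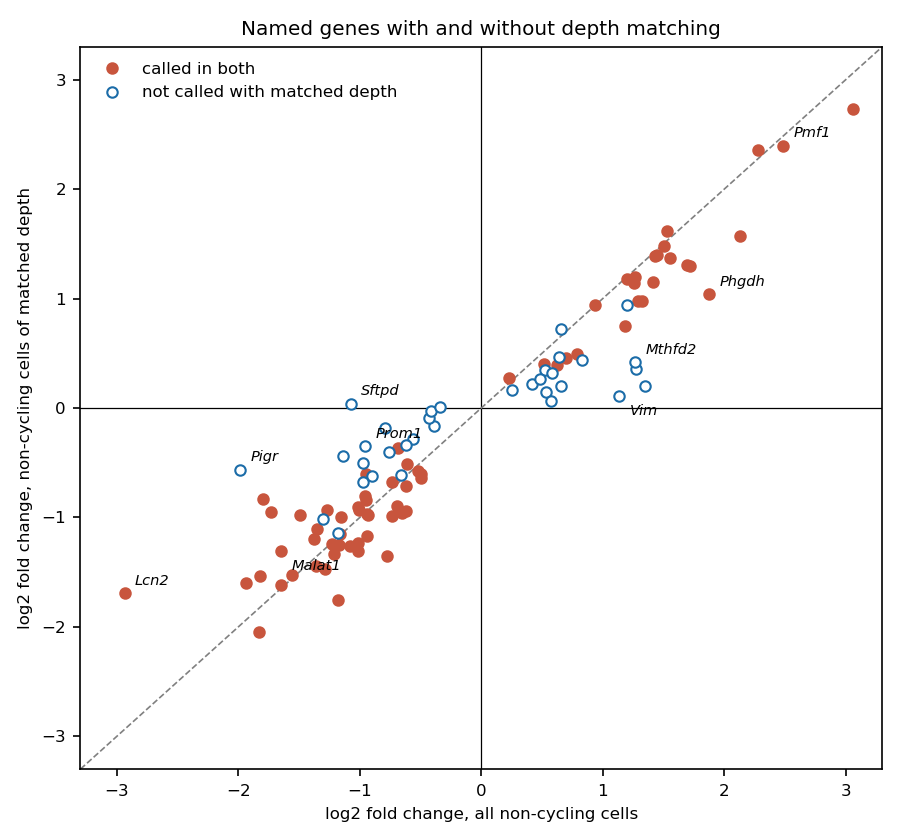
Log2 fold change of named genes called against all non-cycling cells (horizontal) and the depth-matched value (vertical), with the line of equality dashed. Of 109 genes tested in both, 75 (filled) were called in both and 34 (open) were not called depth-matched, Vim, Prom1, Pigr and Sftpd among them; 6 genes beyond the axes (Lockd, H1fx, C330027C09Rik, Ctrb1, Prss2 and Reg2) are not drawn.

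Most of the 15 largest falls were in digestive enzymes, other acinar products and islet hormones of normal pancreas. Cells with a high share of such transcripts were less frequent in the cycling arm. Chymotrypsinogen B (Ctrb1) had 80.7, 2.398 and 40.2 CPM against 2699.9, 699 and 2721 CPM (-5.64 ± 0.17), and the trypsinogen Prss2 had 26.04, 0 and 17.2 CPM against 984, 176 and 326 CPM (-5.31 ± 0.26). At least 1 Ctrb1 UMI was found in 69.5%, 13.7% and 48.3% of cycling and 53.5%, 7.90% and 31.5% of non-cycling cells. After thinning these shares were 21.9%, 0.719% and 10.3% against 26.7%, 3.09% and 16.6%. Try5, Try4, Cel, Pnliprp1, Reg2, Reg3a, Rnase1, Spink1, Zg16, Zfp467, 2210010C04Rik, Ppy and Pyy made up the rest of the 15, and trypsinogens are near-identical copies between which reads may be split. The 8 acinar markers summed to 14.4 to 164 CPM in cycling and 1005 to 4205 CPM in non-cycling sums, with 6 of 6 tested lower, and the 6 endocrine markers to 0 to 7.81 against 226 to 355 CPM. Cells with at least 0.1% of UMIs from either set made up 2.34%, 0% and 1.72% of cycling and 9.18%, 1.65% and 5.50% of non-cycling cells. Without them 6 of the 15 were testable. Ctrb1 and Prss2 are themselves among the markers that chose the cells left out, so a smaller fall of both was built in. Ctrb1 was -0.19, Prss2 -0.51 and Reg2 -0.41 (from -4.71), none called. The trypsinogen Try5 (-2.03, from -6.38) and the hormone peptide YY (Pyy, -2.98, from -5.23) were smaller falls that stayed called. The zinc finger protein Zfp467 stood at -4.76 (from -4.83), also called. That comparison called 841 genes higher (8.24%) and 609 lower (5.96%).

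Markers of other cell types were summed in each arm. Fibroblast markers, of which Dcn and Col3a1 were capped by the gate, summed to 109 to 201 CPM in cycling and 145 to 199.9 CPM in non-cycling sums. Endothelial markers summed to 11.5 to 60.0 against 19.6 to 74.1 CPM, and macrophage and dendritic markers to 63.2 to 91.1 against 96.4 to 170.2 CPM, with 7 of their 10 markers at 0 in all cycling sums. The 1 lower macrophage marker was Cd14 (-0.83 ± 0.21). Mesothelial markers summed to 278 to 724 against 244 to 660 CPM, with 0 of 2 tested called by edgeR and 3 of 6 at 0 in all cycling sums. Pericyte and smooth muscle markers summed to 69.0 to 168 against 54.8 to 214 CPM, with 1 of 3 tested higher. That was the smooth muscle actin Acta2, with 39.1, 115 and 11.5 CPM against 28.0, 36.9 and 11.7 CPM (1.07 ± 0.28), not called without tumour 2 (0.31). Tuft cell markers summed to 28.8 to 91.1 against 35.1 to 81.7 CPM, with 1 of 3 tested higher. That was Avil, with 39.1, 12.0 and 28.7 CPM against 9.38, 11.2 and 8.63 CPM (1.36 ± 0.41), not called without tumour 1 (0.72) or without tumour 3 (1.26). Neither Acta2 nor Avil was called by DESeq2 (0.91 and 1.32) or without the tumour block (1.24 and 1.39). Acta2 stayed called depth-matched (1.14), without tumour 1 (1.31) and without tumour 3 (1.18), and Avil without tumour 2 (1.86). These 3 markers were named after their values were seen. T, B and NK cell markers reached at most 2.40 CPM in cycling and 2.65 CPM in non-cycling sums. The 8 epithelial markers summed to 6554 to 8615 against 9173 to 10289 CPM. They include Epcam and Krt18, which the gate used, so their calls are not counted here. Before thinning, any Dcn or Col3a1 UMI was found in 71.1%, 65.5% and 58.6% of cycling and 56.2%, 38.9% and 36.6% of non-cycling cells. After thinning, Dcn was found in 4.69%, 4.32% and 5.17% of cycling and 6.85%, 4.46% and 7.31% of non-cycling cells. Col3a1 was then found in 15.6%, 9.35% and 6.90% against 17.0%, 12.6% and 10.5%. The comparison with no such UMI allowed called 650 genes. It also left fewer cells, and the cause of the lower count was not tested. Pairs of tumours shared 50, 65 and 57 barcode sequences, carried by 2, 2 and 1 cycling cells of tumours 1, 2 and 3.

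Levels were also taken by the number of rule genes detected, in cells the rule itself had ordered, so these values are a description and no trend over the number was tested. The summed level of splicing genes, relative to cells with no rule gene, was 1.17, 1.14 and 1.14 in cells with 1 to 2 rule genes, 1.83, 1.498 and 1.44 with exactly 3, 1.71, 1.72 and 1.53 with exactly 4 and 1.87, 1.74 and 1.92 with 6 to 8. Early response genes stood at 0.667, 0.494 and 0.814 with exactly 3 and 0.541, 0.615 and 0.497 with 6 to 8. Ductal and inflammatory genes stood at 0.544, 0.764 and 0.579 with exactly 3 and 0.551, 0.496 and 0.567 with 6 to 8. Cells just outside the threshold thus lay on the cycling side of cells without a rule gene for these lists in all 3 tumours.

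**Figure D5:**
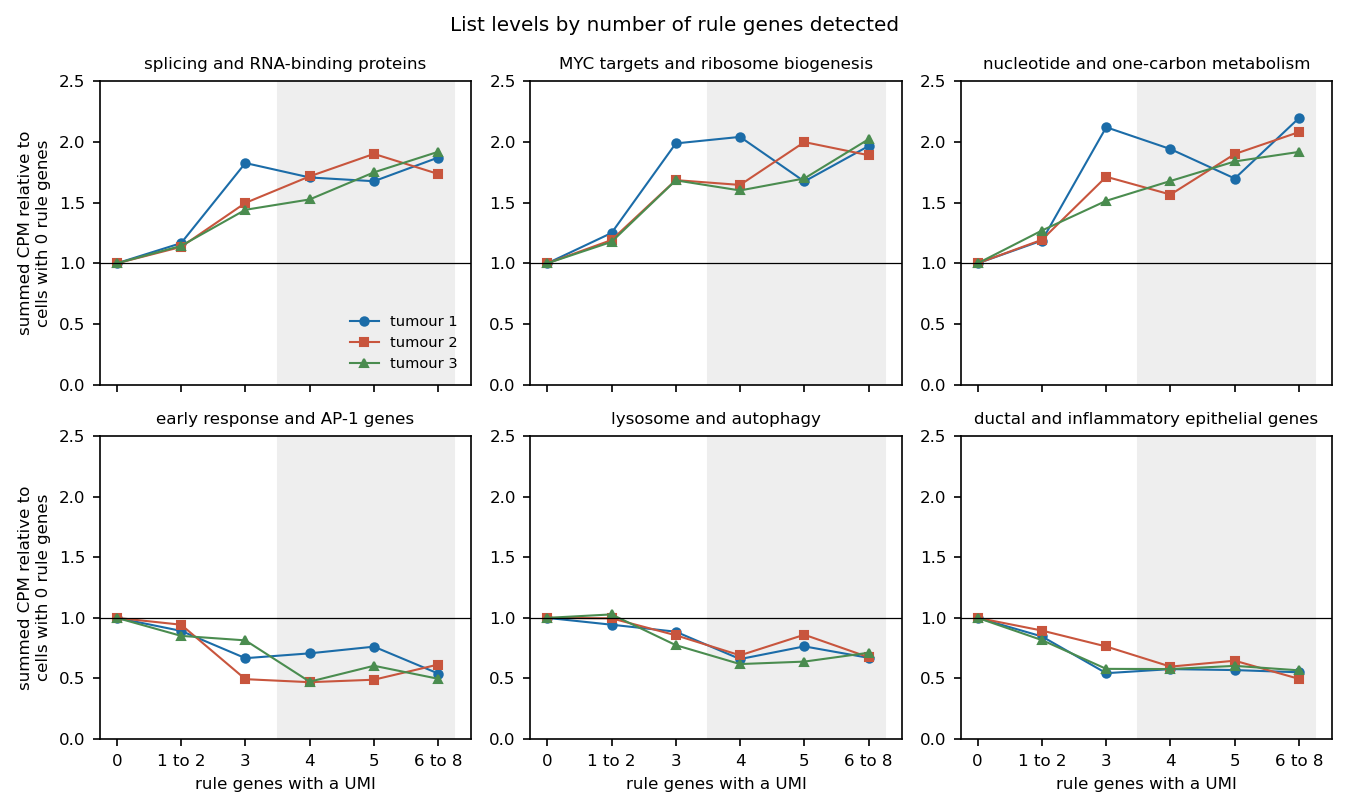
Summed CPM of 6 lists in thinned cells grouped by the number of rule genes with a UMI, relative to cells with none (line at 1), for each tumour; the grey area marks cells called cycling. The upper 3 lists lie above 1 and the lower 3 below 1 from 3 rule genes onward in every tumour, with splicing genes at 1.87, 1.74 and 1.92 in cells with 6 to 8.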

How the data were processed

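UMI counts per gene and cell were deposited by the authors as 1 matrix, with the tumour given by the ending of each barcode; Cell Ranger 2.1.1 and Seurat 3.0 are named in the submitters' processing notes, while a genome build was not given in the sources used here. In all, the libraries held 60801677, 67262634 and 53162622 UMIs in tumours 1, 2 and 3. Cells were gated and sorted into arms on these counts, thinned to 3000 UMIs without replacement (seed 1) and summed, and the tumour, which links its cycling and its non-cycling sum, is the block.

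The 8 rule genes were removed before testing, genes of low count were filtered with filterByExpr, and sums were scaled by TMM and tested with edgeR 4.0.16 (R 4.3.3), a script tested on simulated data. Each SE was obtained from the fold change and its F statistic. DESeq2 1.42.0, the other scaling of edgeR, other filters, thresholds and gates, leaving out the 5% of cells with the highest Scrublet scores (scanpy 1.11.5) and leaving out each tumour were alternatives; no doublet was removed otherwise. Leaving out acinar- and endocrine-marked cells and a robust prior were added after seeing the data. The members and gene lists were chosen with earlier results of these data known. Named genes were, of those called with a mean of at least 20 CPM in the higher arm and 1 direction in all tumours, the 15 highest and 15 lowest outside the cell cycle lists; up to 4 called genes of each list with the largest change and 1 direction in all tumours; and a fixed set given whether called or not; some of these genes are not reported here. Gate genes stayed in the fit and in its counts of genes, but are given as levels only.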

Additional observations from a re-analysis of the deposited data

How the results depend on the processing

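The count of called genes was 1493 (846 higher, 647 lower). It was 647 (440 and 207) by DESeq2, 270 (235 and 35) with no replicate block, 2893 (1664 and 1229) with no thinning, 587 (304 and 283) with non-cycling cells matched on depth, 725 (322 and 403) with the rule applied after thinning and 650 (306 and 344) with Dcn plus Col3a1 at 0. Leaving out 1 tumour gave 745 to 1161 calls, 432 to 687 higher and 313 to 474 lower. Of the called genes 56.7% were higher, against 68.0% by DESeq2, 87.0% with no replicate block, 45.1% with no filter on low counts and 44.4% with the rule applied after thinning. The mean share of cycling cells went from 4.46% to 1.755% with the rule applied after thinning. The log2 fold change reversed for Rpl41 (-0.007), Stip1 (-0.023) and Il33 (-0.306) with Dcn plus Col3a1 at 0, for mt-Nd2 (0.009) and Sftpd (0.041) with matched depth, and for Ccnd1 (-0.006) with the rule applied after thinning. The cause was not tested in any of these; matched depth and the stricter gates also leave fewer cells. Of the comparisons of named genes with an alternative, 2603 counted as unchanged, 503 lost the call, 4 gained it and 6 reversed a called gene. Those counted as unchanged include any sign change of a gene not called in the main fit. They also include same-direction comparisons without an adjusted p. The tumour 3 cycling sum, with 174000 UMIs from 58 cells, limits the precision for low genes.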
